A study of Mus musculus with 10 samples.

Results

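A set of 10 genes of the basal, or myoepithelial, layer of the mammary gland was read out in cultured mouse mammary epithelial cells with and without added biglycan. They were chosen by symbol, and all 10 were found among the 53167 genes of the count table. Trp63, Col17a1 and Oxtr encode a basal transcription factor, a basal adhesion protein and the oxytocin receptor. Acta2, Actg2, Myh11, Mylk, Myl9, Tagln and Cnn1 encode parts of the smooth-muscle contractile apparatus. The 5 BGN samples were wild-type primary cells given 100 ng/mL of biglycan protein, a small proteoglycan of connective tissue matrix. The 5 Control samples were wild-type primary cells without it, and both groups came from mammary gland and grew in DMEM with serum and antibiotics. Neither the duration of treatment, the sorting of cells, nor whether replicates came from separate animals or cultures is given in the sources used here, so p-values measure only the spread between these samples. The series asked which transcripts respond to biglycan, with WNT signalling and epithelial migration named as its interest.

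Myoepithelial cells form the outer layer of the mammary epithelium, between the luminal cells and the basement membrane. They carry basal keratins and p63, the product of Trp63, which maintains the basal state of stratified and glandular epithelia. When oxytocin binds its receptor in lactation, calcium rises, myosin light chain kinase phosphorylates the regulatory light chain, and smooth-muscle actin and myosin shorten the cell to eject milk. Many smooth-muscle genes are switched on by serum response factor (SRF), which binds a DNA element called the CArG box with the coactivators myocardin, MRTF-A and MRTF-B.

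The CArG box was searched in the RefSeq promoter windows, 250 bases before to 50 after each gene start (build GRCm38.p6, whereas the counts were made on GRCm39). Entries were found for 6 of the 10 genes: Acta2, Mylk, Myl9, Cnn1, Oxtr and Col17a1. The box reads the same on both strands. Myl9 held 1 exact match and 1 match with a mismatch, Acta2 held 2 matches with 1 mismatch each, and Col17a1 held 1 such match. An exact match was present in 1.63% of all 32851 windows, and a match with up to 1 mismatch in 21.1%. The matches of Acta2 and Myl9, the 2 most abundant contractile genes here, are shown because SRF is known to act on such genes through boxes of this kind, although a match of letters is not a shown site; capitals mark the box, with 10 bases on either side.
Acta2 box 84 bases before the start, chr19:34255438-34255467, minus strand: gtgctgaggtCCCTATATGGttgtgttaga
Acta2 box 34 bases before the start, chr19:34255388-34255417, minus strand: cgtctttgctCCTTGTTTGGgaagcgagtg
Myl9 box 161 bases before the start, chr2:156775293-156775322, plus strand, exact: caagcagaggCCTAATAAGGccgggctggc
Myl9 box 99 bases before the start, chr2:156775355-156775384, plus strand: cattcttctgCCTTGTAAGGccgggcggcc
The windows of Mylk, Cnn1 and Oxtr held no match, which says only that these letters are not there.

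Library totals ran from 18292624 to 21820560 counts and did not separate the groups (two-sided exact permutation p = 0.286). The cells carried markers of both epithelial layers. The basal keratin gene Krt14 averaged 3524 ± 88.0 CPM in BGN cells and 3741 ± 358 CPM in Control cells, and the epithelial adhesion gene Epcam 1118 ± 24.2 CPM in BGN cells and 1135 ± 42.9 CPM in Control cells. All 18 listed luminal markers averaged at least 1 CPM over the libraries. Of these, the luminal keratin gene Krt8, picked after its value was seen, averaged 876 ± 26.2 CPM in BGN cells and 915 ± 45.4 CPM in Control cells. CPM here are read counts scaled to a common library size with TMM factors, and the error is the SD over n = 5 each, as throughout. Control replicate 5 stood apart, with a mitochondrial read share of 1.16%. This share was 2.14% to 2.26% in BGN cells and 1.80% to 2.27% in the other 4 Control libraries, and 4 of the 5 Control libraries lay below every BGN library. The part of this share in the comparisons was not tested. Without Control replicate 5 the log2 fold change (BGN over Control) was 0.067 for Col17a1, 0.050 for Oxtr, 0.070 for Trp63 and 0.093 for Tagln. It was -0.12 for Acta2, -0.13 for Myl9 and -0.013 for Mylk. Fits with all libraries are given below. Control replicate 5 also had the highest summed level of 10 basal keratin and surface markers, 8267 CPM against 6987 to 7634 CPM in the other libraries (marker sums are scaled by library totals alone).

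The 3 basal genes were the most abundant. The contractile genes ranged from Acta2 and Myl9, above the middle of tested genes, down to near the limit of detection. Divided by exon length, so that genes can be compared, Col17a1 averaged 105 CPM per kb over the 10 libraries, Oxtr 34.7 CPM per kb and Trp63 24.8 CPM per kb. Per kb, these levels lay above those of 97.5%, 90.2% and 85.2% of tested genes. Acta2 followed at 12.6 CPM per kb and Myl9 at 7.70 CPM per kb, above 70.4% and 56.9% of tested genes. A wide step came next: Tagln stood at 0.673 CPM per kb, a level 11.5-fold below Myl9, and Mylk at 0.350 CPM per kb. Cnn1, Actg2 and Myh11 were close to the limit of detection, at 0.0991, 0.0796 and 0.0265 CPM per kb. In this order the ranges over the 10 libraries of neighbouring genes did not overlap from Col17a1 down to Mylk and Cnn1. The ranges of Cnn1 and Actg2, and of Actg2 and Myh11, did overlap, so their order is not resolved. These ranges do not hold any error of the exon length, which is fixed for each gene. In CPM without length, Trp63 (208) lay above Oxtr (166), and Mylk (3.94) above Tagln (1.34). The order within these pairs, and the width of the step below Myl9 (8.95 CPM), thus depend on exon length. The level of Tagln is uncertain for a further reason given below. In bulk RNA a lower level can mean fewer cells of a type or less RNA per cell, which cannot be told apart.

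**Figure D1:**
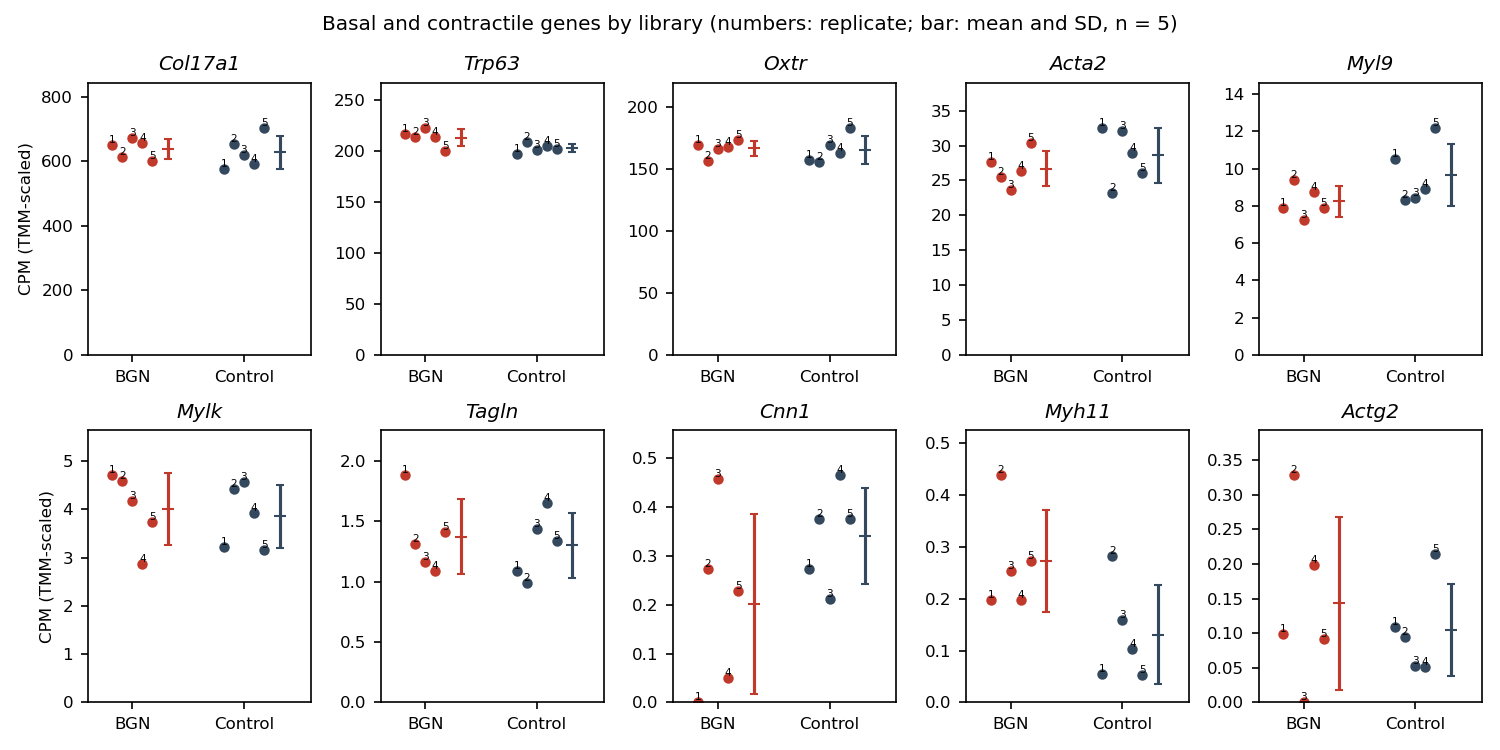
CPM (TMM-scaled) of the 10 genes in the 5 BGN and 5 Control libraries; each point is a library with its replicate number, and the bar gives the mean and SD. The 2 groups overlap in every panel, and Cnn1, Myh11 and Actg2 reach at most 0.465 CPM.

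None of the 10 genes passed the test between BGN and Control. After the filter on low counts 7 of them were tested, and 0 in either direction reached the threshold, a p of less than 0.05 by the quasi-likelihood test of edgeR after Benjamini-Hochberg adjustment over 14415 genes. The same held for 0% of all tested genes. Before adjustment, 0 of these 7 and 4.81% of all tested genes had p values of less than 0.05, and 0 of the 7 passed with DESeq2 or limma-voom. The groups overlapped for all 10 genes, and they did not overlap for 0.728% of all tested genes. Estimates were above 0 for 5 of the 7, against 48% of all tested genes, and for 3 without BGN replicate 1 or Control replicate 2 and 2 without Control replicate 1. Their median log2 fold change (BGN over Control) was 0.022, and that of all tested genes was -0.0040. The median of the 7 fell below 0 without BGN replicate 1 (-0.014), Control replicate 1 (-0.0080) or Control replicate 2 (-0.0084).

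Trp63 had a small estimate above 0 that did not pass. p63 is the transcription factor that marks basal epithelium, and counts per gene do not separate its TA and delta-N isoforms. Trp63 stood at 217, 214, 223, 214 and 200.3 CPM in BGN replicates 1 to 5, against 198, 209, 201, 205 and 202 CPM in Control replicates 1 to 5. BGN libraries 1 to 4 lay above every Control library, and BGN replicate 5 lay below 4 of the 5 Control libraries. Its log2 fold change was 0.071 ± 0.039 (SE, 95% interval -0.0089 to 0.15, adjusted p = 0.945 by edgeR). It was the most even of the 10 genes, with a CV within groups of 3.15%.

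Col17a1 encodes collagen XVII, a transmembrane collagen of the hemidesmosome, which ties the keratins of a basal cell to the basement membrane. It stood at 649.8, 613, 673, 656 and 601 CPM in BGN cells, against 575, 652, 619, 593 and 704 CPM in Control cells. Control held both the lowest library, replicate 1, and the highest, replicate 5. The log2 fold change was 0.022 ± 0.050 (SE, 95% interval -0.080 to 0.13, adjusted p = 0.986 by edgeR), and its sign turned without Control replicate 1 (-0.0082). Without Control replicate 5 it was 0.067. Counting error alone would give a CV of 0.896%, and the observed CV within groups was 6.62%.

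Oxtr, the gene of the G protein-coupled oxytocin receptor, was nearly equal in both groups. It stood at 169.7, 157, 167, 168 and 174 CPM in BGN cells, against 157, 156, 169, 163 and 183 CPM in Control cells. Control replicate 5 was again the highest, and the remaining libraries were intermixed. In BGN over Control the log2 fold change was 0.011 ± 0.046 (SE, 95% interval -0.084 to 0.11, adjusted p = 0.991 by edgeR). It turned to -0.0021 without BGN replicate 5, to -0.0080 without Control replicate 1 and to -0.010 without Control replicate 2. Without Control replicate 5 it was 0.050. The part of the mitochondrial read share and of the basal marker sum of Control replicate 5 in its high Col17a1 and Oxtr levels was not tested.

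Acta2, which encodes the smooth-muscle alpha-actin commonly used to stain myoepithelial cells, was the contractile gene with the highest level. It stood at 27.6, 25.5, 23.7, 26.4 and 30.4 CPM in BGN cells, against 32.5, 23.2, 32.1, 28.9 and 26.1 CPM in Control cells. Control replicates 1 and 3 were the highest and Control replicate 2 the lowest of all libraries. Its log2 fold change was -0.094 ± 0.087 (SE, 95% interval -0.28 to 0.089, adjusted p = 0.968 by edgeR), and with single libraries left out it ran from -0.16 (without Control replicate 2) to -0.044 (without Control replicate 1). It was -0.17 with both replicates 5 left out, a choice made after seeing the data. Its variance within groups was 7.96 times that of counting alone.

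The genes of the myosin motor and its switch were lower still. Myl9, the regulatory light chain whose phosphorylation starts contraction, stood at 7.87, 9.40, 7.26, 8.77 and 7.88 CPM in BGN cells, against 10.5, 8.32, 8.40, 8.89 and 12.2 CPM in Control cells. Control replicates 1 and 5 were the highest, and the other Control libraries lay among the BGN libraries. The log2 fold change was -0.23 ± 0.11 (SE, 95% interval -0.46 to 0.0032, adjusted p = 0.945 by edgeR). In the fit without the filter on low counts the 95% interval was -0.44 to -0.021, below 0 before adjustment over genes, with an adjusted p = 0.734 by edgeR. It was -0.13 without Control replicate 5, the library with the low mitochondrial share, and -0.12 with both replicates 5 left out.

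Mylk, the gene of myosin light chain kinase, stood at 4.70, 4.59, 4.16, 2.87 and 3.73 CPM in BGN cells, against 3.22, 4.42, 4.57, 3.93 and 3.17 CPM in Control cells. BGN held both the highest and the lowest library. Between the groups the log2 fold change was 0.050 ± 0.15 (SE, 95% interval -0.27 to 0.37, adjusted p = 0.988 by edgeR), and its sign turned when 1 of 4 libraries was left out: BGN replicate 1 (-0.014), BGN replicate 2 (-0.00026), Control replicate 1 (-0.0077) and Control replicate 5 (-0.013). Myh11, the smooth-muscle myosin heavy chain and a marker of mature smooth muscle, gave 4, 8, 5, 4 and 6 counts in BGN, against 1, 6, 3, 2 and 1 counts in Control. These sums, 27 counts in BGN and 13 in Control, are small, and the gene was removed by the filter. In a fit without the filter the log2 fold change was 0.98 ± 0.64 (SE, 95% interval -0.27 to 2.24, adjusted p = 0.734 by edgeR, where 0.0113% of 26531 genes passed).

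The remaining thin-filament genes gave few counts. Tagln encodes transgelin, an actin-binding protein that appears early in smooth-muscle differentiation. It stood at 1.88, 1.31, 1.17, 1.09 and 1.41 CPM in BGN cells, against 1.09, 0.987, 1.44, 1.65 and 1.34 CPM in Control cells, from 20 to 38 counts per library. The log2 fold change was 0.081 ± 0.23 (SE, 95% interval -0.39 to 0.55, adjusted p = 0.987 by edgeR), and it turned without BGN replicate 1 (-0.059) or Control replicate 2 (-0.0084). Of the distinct 50-base stretches of its annotated transcripts, 58.3% also occur, on the other strand, in the antisense gene Gm48529 or at the end of Pcsk7. Gm48529 was listed at 2.38 ± 0.357 CPM in BGN cells and 2.13 ± 0.420 CPM in Control cells, above Tagln itself. The strand setting of the counting is not given in the sources used here. Whether reads from the shared stretches were counted for Tagln, for Gm48529 or for neither thus cannot be told, and the level of Tagln is uncertain.

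Cnn1, the gene of basic calponin, an inhibitor of actomyosin that marks differentiated smooth muscle, gave 0, 5, 9, 1 and 5 counts in BGN, against 5, 8, 4, 9 and 7 counts in Control. The count of 0 in BGN replicate 1 allows up to 0.149 CPM, the level of 3 counts, for counting error only. Actg2, the smooth-muscle gamma-actin, gave 2, 6, 0, 4 and 2 counts in BGN, against 2, 2, 1, 1 and 4 counts in Control. Both were removed by the filter. Without it, the log2 fold change of Cnn1 was -0.75 ± 0.55 (SE, 95% interval -1.84 to 0.33), and that of Actg2 0.42 ± 0.80 (SE, 95% interval -1.16 to 1.99), with adjusted p = 0.734 and 0.929 by edgeR. At this depth a 2-fold increase lies within the intervals of Myh11 and Actg2, and a 2-fold decrease within those of Cnn1 and Actg2.

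**Figure D2:**
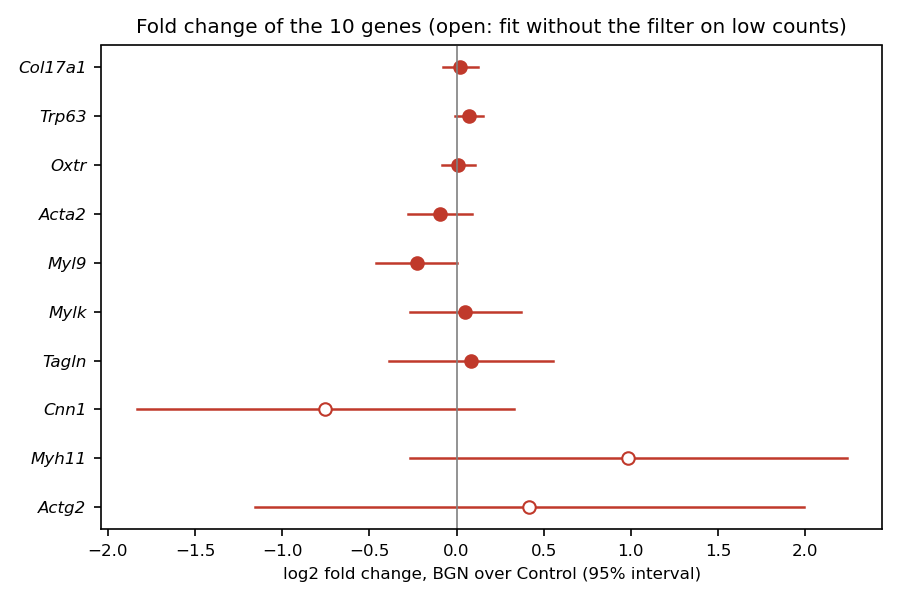
Log2 fold change of the 10 genes, BGN over Control, with the 95% interval from edgeR; filled points are from the filtered fit and open points from the fit without the filter on low counts. The intervals of all 10 reach both sides of 0, with the narrowest for Trp63 (-0.0089 to 0.15) and the widest for Actg2 (-1.16 to 1.99).

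The smooth-muscle forms of 5 protein families stood far below their non-muscle relatives in the same libraries. The non-muscle forms build the general cytoskeleton of most cells, and the pairs were chosen after the levels were seen. Acta2 and Actg2 together made 1.38 ± 0.131% in BGN and 1.47 ± 0.174% in Control of the 4 actins Acta2, Actg2, Actb and Actg1, summed as CPM per kb. Per kb, Myh11 was 0.0663 ± 0.0216% in BGN and 0.0327 ± 0.0245% in Control of its sum with Myh9 and Myh10. Myl9 held the largest share of the 5 families, 8.72 ± 0.777% in BGN and 10.2 ± 2.24% in Control of its sum with Myl12a and Myl12b.

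The calponin and transgelin families showed the same step. Cnn1 made 0.0723 ± 0.0668% in BGN and 0.120 ± 0.0369% in Control of the calponins Cnn1, Cnn2 and Cnn3, and Tagln 0.547 ± 0.120% in BGN and 0.492 ± 0.101% in Control of its sum with Tagln2. The level of the non-muscle sum over that of the smooth-muscle genes, from means over the 10 libraries per kb, was 9.59-fold for the light chains and 69.1-fold for the actins. It was 192-fold for the transgelins, 1044-fold for the calponins and 2020-fold for the heavy chains. Tpm4 and Cald1, a tropomyosin and caldesmon, both in use outside muscle and picked after their values were seen, averaged 739.8 ± 16.5 and 761 ± 19.9 CPM in BGN cells, against 739 ± 43.9 and 751 ± 27.8 CPM in Control cells. Of the distinct 50-base stretches of their transcripts, 0.326% of those of Acta2 and 0.340% of those of Myh11 occur in another annotated gene, and 0% of those of Actg2, Myl9 and Cnn1. For Tagln the share is the 58.3% given above, so the share and ratio of the transgelins are uncertain with its level.

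**Figure D3:**
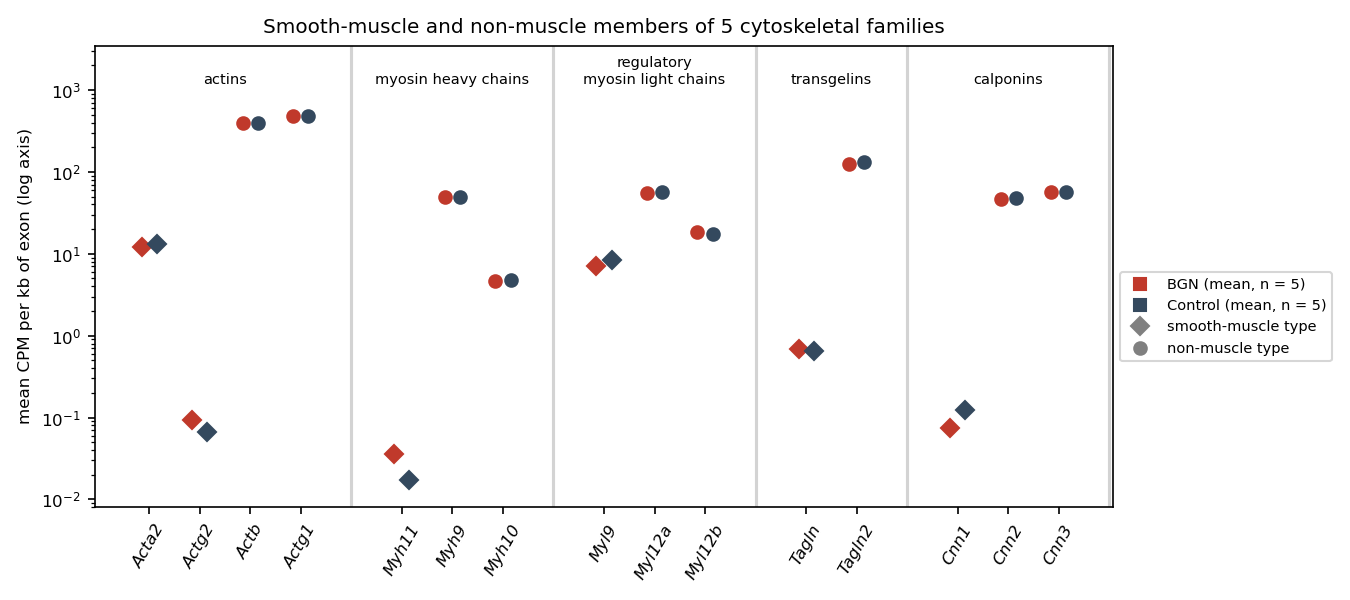
Mean CPM per kb of exon, on a log axis, of smooth-muscle (diamonds) and non-muscle (circles) genes of 5 families in BGN and Control (n = 5 each). In each family the smooth-muscle genes lie below the non-muscle genes, and Myl9 lies nearest to its non-muscle relatives.

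Other cell types with contractile genes were looked for by their markers. Of 14 markers of vascular smooth muscle and pericytes, 5 averaged at least 1 CPM and 1, Rergl, had no count. Their sum was 202 to 248 CPM in BGN cells and 211 to 258 CPM in Control cells (two-sided exact permutation p = 0.683, or 0.796 after adjustment for 7 marker lists). Notch3, which epithelial cells also use, gave 149.5 ± 8.64 CPM in BGN cells and 151 ± 13.1 CPM in Control cells of it. Without Notch3 the sum was 65.1 to 89.4 CPM in BGN cells and 72.4 to 91.9 CPM in Control cells. Most of that remainder came from Mcam, at 44.0 ± 2.77 CPM in BGN cells and 44.3 ± 4.97 CPM in Control cells, and Ndufa4l2, at 27.7 ± 11.8 CPM in BGN cells and 30.2 ± 7.40 CPM in Control cells. Rgs5, Pdgfrb and Des averaged 4.35, 0.611 and 0.0150 CPM over the 10 libraries. These 5 genes other than Notch3 were picked after their values were seen.

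Markers of fibroblasts summed to 1890 to 2474 CPM in BGN cells and 1418 to 2299 CPM in Control cells, of which Postn gave 2029 ± 223 CPM in BGN cells and 1727 ± 326 CPM in Control cells (SD, n = 5 each). Of 12 such markers 5 averaged at least 1 CPM, and Dpt and Pi16 had no count; without Postn the sums were 55.7 to 62.3 CPM in BGN cells and 48.0 to 71.7 CPM in Control cells. Neither this sum nor those of luminal, basal, skeletal muscle, endothelial or myeloid markers passed a test (exact permutation tests, two-sided, smallest adjusted p = 0.333). The skeletal muscle sum was 9.58 to 15.7 CPM in BGN cells and 12.7 to 17.5 CPM in Control cells, led by Mb. The endothelial sum was 6.04 to 8.11 CPM in BGN cells and 6.91 to 7.52 CPM in Control cells, led by Pecam1. The myeloid sum was 385 to 419.5 CPM in BGN cells and 381 to 452 CPM in Control cells, of which Cd14 gave 402 ± 15.9 CPM in BGN cells and 401 ± 26.7 CPM in Control cells. Without Cd14 it was 2.52 to 4.13 CPM in BGN cells and 2.48 to 4.39 CPM in Control cells. The part of these other cells in the low contractile levels was not tested.

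The activators of smooth-muscle genes were unevenly present. Srf averaged 30.5 ± 1.66 CPM in BGN cells and 30.7 ± 1.18 CPM in Control cells. Mrtfa and Mrtfb, whose products carry actin signals to SRF, averaged 37.6 ± 2.51 and 103 ± 5.61 CPM in BGN cells, against 38.8 ± 0.611 and 99.2 ± 4.66 CPM in Control cells. Myocd, the gene of myocardin, which drives smooth-muscle differentiation, had 0 counts in all 10 libraries, which allows up to 0.0153 CPM over the 196686029 reads counted. Gata6, a factor of smooth-muscle cells, also had 0 counts. These 5 genes were picked from their list after their values were seen.

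Of the 13 tested genes of the SRF list, 8 had estimates above and 5 below 0 (median log2 fold change 0.034), and 0 passed. Its most abundant members were the actin genes Actg1, at 1266 ± 19.3 CPM in BGN cells and 1266 ± 23.9 CPM in Control cells, and Actb, at 1063 ± 34.4 CPM in BGN cells and 1075 ± 26.9 CPM in Control cells. Egr1, an immediate early gene that SRF controls, had the smallest p, at 183 ± 4.74 CPM in BGN cells and 167 ± 6.39 CPM in Control cells (log2 fold change 0.13, with an adjusted p = 0.945 by edgeR).

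Partner genes of the contractile apparatus split evenly. Among 16 tested thin-filament partners 8 had estimates above and 8 below 0, and 0 passed. Actn4 and Flna, actin cross-linkers, were the most abundant, at 1013 ± 33.1 and 795 ± 45.0 CPM in BGN cells, against 991 ± 26.7 and 784 ± 26.9 CPM in Control cells. Tpm2, a tropomyosin prominent in smooth muscle, had the smallest p of that list, at 115 ± 3.64 CPM in BGN cells and 128 ± 11.7 CPM in Control cells (log2 fold change -0.15, with an adjusted p = 0.945 by edgeR). In the list of myosin light chain kinase and phosphatase partners 9 of 16 lay above 0 and 0 passed. There the phosphatase subunit gene Ppp1cb averaged 851 ± 25.6 CPM in BGN cells and 828 ± 43.6 CPM in Control cells, and the calmodulin genes Calm2 and Calm3 had log2 fold changes of -0.038 and -0.088.

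Downstream of the oxytocin receptor, all 15 listed genes were tested, with 7 above and 8 below 0 and 0 passing. Cav1, the gene of caveolin-1, averaged 312 ± 15.3 CPM in BGN cells and 318 ± 31.6 CPM in Control cells, and Gnaq, the G protein subunit that links this receptor to phospholipase C, 163 ± 4.82 CPM in BGN cells and 156 ± 8.14 CPM in Control cells. Orai1, a store-operated calcium channel gene, had the smallest p, at 6.95 ± 0.889 CPM in BGN cells and 8.37 ± 0.992 CPM in Control cells (log2 fold change -0.26, with an adjusted p = 0.945 by edgeR).

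The genes around p63 did not pass either. Of 13 tested partners and basal transcription factors, 11 had estimates above and 2 below 0 (median log2 fold change 0.052, against -0.0040 for all tested genes), and 0 passed. Sox9 averaged 391.9 ± 17.1 CPM in BGN cells and 373 ± 19.4 CPM in Control cells. Egfr, with the smallest p of this list, averaged 139 ± 6.98 CPM in BGN cells and 128 ± 7.69 CPM in Control cells (log2 fold change 0.13, with an adjusted p = 0.945 by edgeR). Of 20 tested genes reported as p63 targets, 8 lay above and 12 below 0 (median -0.010), and 0 passed. Krt5, a basal keratin gene, averaged 1478 ± 72.3 CPM in BGN cells and 1547 ± 105 CPM in Control cells, and Sfn, an epithelial 14-3-3 gene with the smallest p of this list, 265 ± 5.61 CPM in BGN cells and 284 ± 28.2 CPM in Control cells (log2 fold change -0.095). The 10 hemidesmosome partners of collagen XVII split 5 and 5, and 0 passed. Over all 7 lists, 0 of 95 tested genes passed. Before adjustment 4 of the 95 had p values of less than 0.05 by edgeR (Egr1, Tpm2, Egfr and Orai1), against 4.81% of all tested genes.

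**Figure D4:**
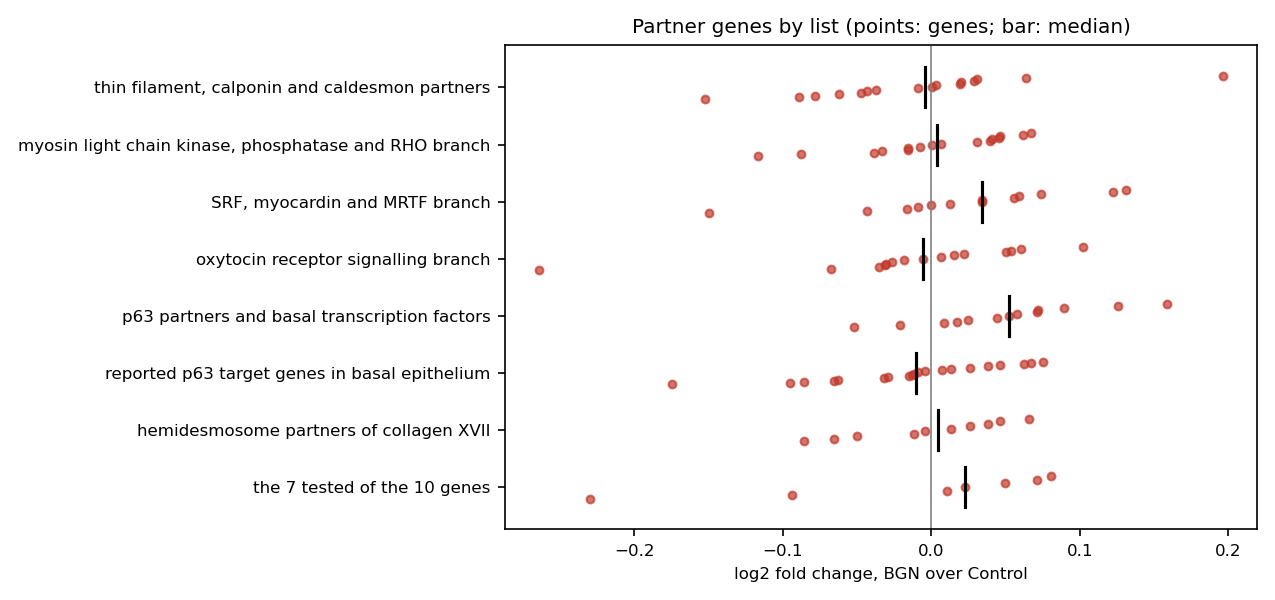
Log2 fold change, BGN over Control, of the tested genes of 7 partner lists and of the 7 tested genes of the 10 described here; points are genes and bars are medians. The points lie between -0.26 and 0.20, and none passed the test.

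No pair of the genes passed a test for varying together from library to library. Cnn1, Myh11 and Actg2 had too few counts to enter it. Among the 7 with a mean of at least 10 counts, 21 pairs were correlated over the 10 libraries on log2 CPM. Of these, 10 had an r above 0, 2 had an unadjusted p of less than 0.05 for r, and 0 passed after Benjamini-Hochberg adjustment (permutation tests, two-sided, 100000 resamples). The largest was that of Acta2 and Trp63, with r = -0.74 (permutation p = 0.0173, adjusted 0.276) and rho = -0.70 (permutation p = 0.0306, adjusted 0.358). Without Control replicates 1 and 3, farthest from the median of Acta2, r was -0.58, and with the group means removed it was -0.77. For Acta2 and Col17a1, r was -0.70 (permutation p = 0.0262, adjusted 0.276) and rho -0.68 (permutation p = 0.0341, adjusted 0.358), or -0.59 without the same libraries. The contractile genes Acta2 and Myl9 had r = 0.17, Acta2 and Tagln 0.35, and Mylk and Myl9 -0.55 (permutation p = 0.638, 0.318 and 0.0993, adjusted 0.876, 0.718 and 0.477). Their rho was 0.21, 0.44 and -0.44 (permutation p = 0.561, 0.205 and 0.203, adjusted 0.811, 0.615 and 0.615), and without the 2 libraries farthest from the median of the first gene r was 0.023, 0.70 and -0.48.

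As a description, over the same 10 libraries the genes most like Acta2 among 11959 compared were Pold2 (r = 0.96), Vdac3 (0.95) and Thoc3 (0.90). Those most like Trp63 were Gnai1 (r = 0.98), Parm1 (0.96) and Cyp1b1 (0.92), and those most like Tagln were Zfp46 (0.86), Leng1 (0.84) and 1810030O07Rik (0.84). With 10 libraries and this many genes the highest values are chosen for their size.

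**Figure D5:**
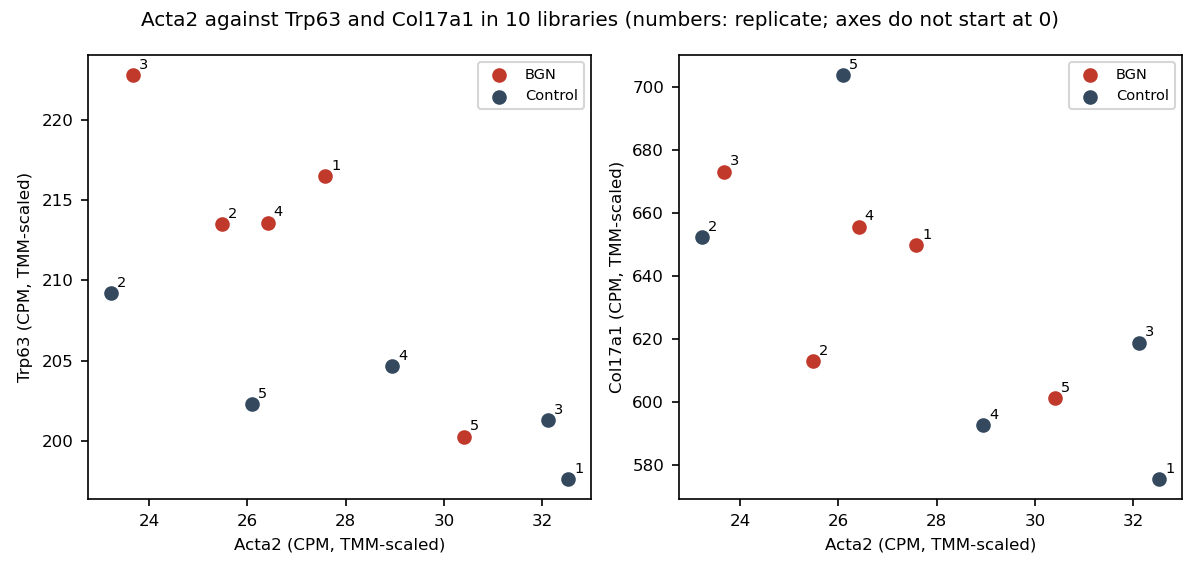
CPM of Acta2 (x axis) against Trp63 (left) and Col17a1 (right) in the 5 BGN and 5 Control libraries, numbered by replicate; axes do not start at 0. Libraries with more Acta2 tended to have less Trp63 (r = -0.74) and less Col17a1 (r = -0.70), and neither passed after adjustment.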

How the data were processed

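Poly-A libraries of 10 samples were made with the NEBNext Ultra kit, per the labels' protocols. The deposited values are raw read counts per gene symbol. The submitters' processing notes name the build GRCm39 and the tools HISAT2 2.2.1, HTSeq, cutadapt 1.9.1 and DESeq2. No source used here states the annotation or strand setting. The genes and partner lists were chosen with earlier results of these data known. The filter was filterByExpr, the scaling TMM and the test that of edgeR 4.0.16 in R 4.3.3 (quasi-likelihood, robust, treatment as the single term, Benjamini-Hochberg over 14415 genes); the step was tested on simulated data. SE and 95% intervals come from the F statistic. Marker sums used library totals alone. Exon lengths are the union over GENCODE M21 transcripts (GRCm38), matched by symbol, and can exceed the expressed transcript. Log2 CPM for correlations had a prior count of 2. Alternatives were other scalings, filters, DESeq2 1.42.0, limma 3.58.1 (voom), no robust estimation, the replicate block, and leaving out libraries. All pairs of libraries differed by more than sampling noise (chi-square per degree of freedom at least 2.43). Named were all 10 genes, the 2 most abundant and the smallest-p tested gene of each partner list, the top marker of each marker list, and the 3 genes most like Acta2, Trp63 and Tagln; others are marked where named, and a partner gene that this rule picked is not reported here.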

Additional observations from a re-analysis of the deposited data

Results flagged for a closer look

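Of 36 groups of 5 values examined for a library far from the rest (each of the 10 genes, 7 marker sums and the library total in each group), 1 was so marked, and chance alone marks about 1 in 20. The summed level of 18 luminal epithelial markers was 5589 CPM in BGN replicate 5, against 5932 to 5957 CPM in the other 4 BGN libraries. In this library Trp63, at 200.3 CPM, and Col17a1, at 601 CPM, were the lowest of the BGN group, and Acta2, at 30.4 CPM, and Oxtr, at 174 CPM, the highest. The part of the luminal marker sum in these levels was not tested.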

How the results depend on the processing

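Under 20 other settings, 1 of them (both replicates 5 left out) chosen after seeing the data, 0 of the tested genes among the 10 passed an adjusted p under 0.05, and Trp63 kept an estimate above 0 and Acta2 and Myl9 below 0. Without the filter on low counts 3 of all genes passed, none of them among the 10; no other setting gave a call. With single libraries left out the log2 fold change ran from -0.014 to 0.15 for Mylk, -0.059 to 0.18 for Tagln, -0.010 to 0.050 for Oxtr, -0.0082 to 0.067 for Col17a1, -0.16 to -0.044 for Acta2, -0.28 to -0.13 for Myl9 and 0.055 to 0.095 for Trp63, their median from -0.014 to 0.050, and 2 to 5 estimates lay above 0. That of Mylk was -0.0064 by limma-voom. Deviations of BGN and Control libraries with the same replicate number had correlations of -0.020 to 0.20. No value for libraries with different numbers stands beside these, so they do not decide whether the number pairs libraries. With the replicate block 0 of the 10 genes and 0 of all genes passed, with Trp63 at 0.071. The difference of the marker sums, BGN minus Control, with single libraries left out ran from -196 to -98.2 CPM for luminal markers (exact permutation p = 0.0317 without Control replicate 2), 202 to 427 CPM for fibroblast markers (0.0476 without Control replicate 5) and -0.622 to -0.103 CPM for endothelial markers (0.0317 without BGN replicate 5), all unadjusted. It ran from -10.6 to 1.64 CPM for vascular smooth muscle markers and -6.12 to 11.6 CPM for myeloid markers, and was 1.24 CPM for myeloid markers under TMM scaling. Allowing 1 mismatch in the CArG box moved the share of windows from 1.63% to 21.1%. Depth limits Cnn1, Myh11 and Actg2, at 0 to 9 counts per library.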
